A study of Arabidopsis thaliana with 6 samples.

Results

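Pollen Ole e 1-like genes were compared in inflorescences between *tink/ibr5-6*, a mutant with smaller organs, and wild-type Landsberg *erecta* (L*er*). The rule lists 10 loci that encode secreted proteins with a pollen Ole e 1 domain, and takes a locus where the platform annotation gives it as the single gene of a probe set. By this rule 8 of the 10 were measured, among 13286 measured genes in all, each of the 8 by 1 probe set. AT4G18596 and AT2G27385 have no such probe set in the annotation used here and were not analysed. The mutant carries a point mutation in *IBR5*, the gene of a phosphatase that acts on MAP kinases, which changes the cysteine of the active site. It was recovered after EMS treatment of *klu-2* plants in the L*er* background and crossed back to L*er* 3 times, which left *tink/ibr5-6* as a single mutant, so that both groups share the L*er* background. Each of the 3 *tink/ibr5-6* and 3 L*er* samples was RNA of inflorescences with young buds from 1 plant, hybridised to 1 Affymetrix ATH1 array. The study calls the buds young and closed, with no numbered stage or age of the plants given here, and *IBR5* itself is not among the measured genes, although the level of its RNA would not check a point mutation.

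Ole e 1 is the main allergen of olive pollen. Its plant family holds small secreted proteins rich in cysteines, and the best studied member, LAT52 of tomato, is made late in pollen development, is needed for hydration of the grain and growth of the pollen tube, and binds a receptor kinase of the pollen surface. Other members of the family are made in root hairs, leaves and flowers, some with a proline-rich stretch like that of cell wall proteins.

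Of the 8 measured Ole e 1-like genes, AT1G29140 and AT5G45880 were lower in *tink/ibr5-6*, AT3G26960 was higher, and 5 were not called. A gene was called where limma's adjusted p (Benjamini-Hochberg over all 22746 probe sets tested) lay below 0.05 and the log2 fold change was larger than 1 in size, the thresholds of the study's methods. Over all probe sets 2.71% were called lower and 1.53% higher. Over the 8 genes the median of the log2 fold change was -0.11, against 0.00 over all probe sets. The genotypes did not overlap in 4 of the 8 genes, against 35.7% of all probe sets. All values are on the log2 scale of gcrma, where a difference of 1 is a doubling and the lowest value, 2.10, is the signal of a probe set that is not above background.

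AT1G29140 had the largest difference among these genes. The gene descriptions of the study place it in the Ole e 1 allergen and extensin family and name AT5G45880 as a similar *Arabidopsis* protein. Its log2 values were 6.54, 6.86 and 4.20 in the *tink/ibr5-6* arrays, against 10.06, 10.34 and 10.49 in the L*er* arrays. The highest mutant array lay 3.20 below the lowest wild-type array, and replicate 3 lay well below the other two mutant arrays. The mean was 5.87 ± 1.45 in *tink/ibr5-6*, against 10.30 ± 0.22 in L*er* (mean ± SD, 3 arrays each). Limma gave a log2 fold change of -4.43 with a standard error of 0.81 and an adjusted p of 0.033. The level in L*er* was thus 21.5-fold that in *tink/ibr5-6*, with a 95% confidence interval of 4.80-fold to 96.5-fold. Among all probe sets 51 had a lower log2 fold change.

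AT5G45880 was lower in *tink/ibr5-6* as well, by less on the log2 scale. It is the relative of AT1G29140 named above, and its own role is not known here. Its values were 10.19, 10.04 and 8.56 in *tink/ibr5-6*, against 12.37, 12.57 and 12.20 in L*er*, so that replicate 3 was again the lowest mutant and the nearest arrays of the genotypes were 2.0 apart. The mean was 9.60 ± 0.90 in *tink/ibr5-6*, against 12.38 ± 0.18 in L*er* (mean ± SD, 3 arrays each), and limma gave a log2 fold change of -2.78 ± 0.51 (standard error) with an adjusted p of 0.033. This is a level in L*er* of 6.87-fold that in *tink/ibr5-6* (95% confidence interval 2.68-fold to 17.6-fold). For both genes the mutant arrays scattered more than the wild-type arrays, and both calls were lost whenever an array other than *tink/ibr5-6* replicate 3 was left out, with adjusted p of 0.067 to 0.109. Without that replicate both were called, with log2 fold changes of -3.59 for AT1G29140 and -2.26 for AT5G45880.

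**Figure D1:**
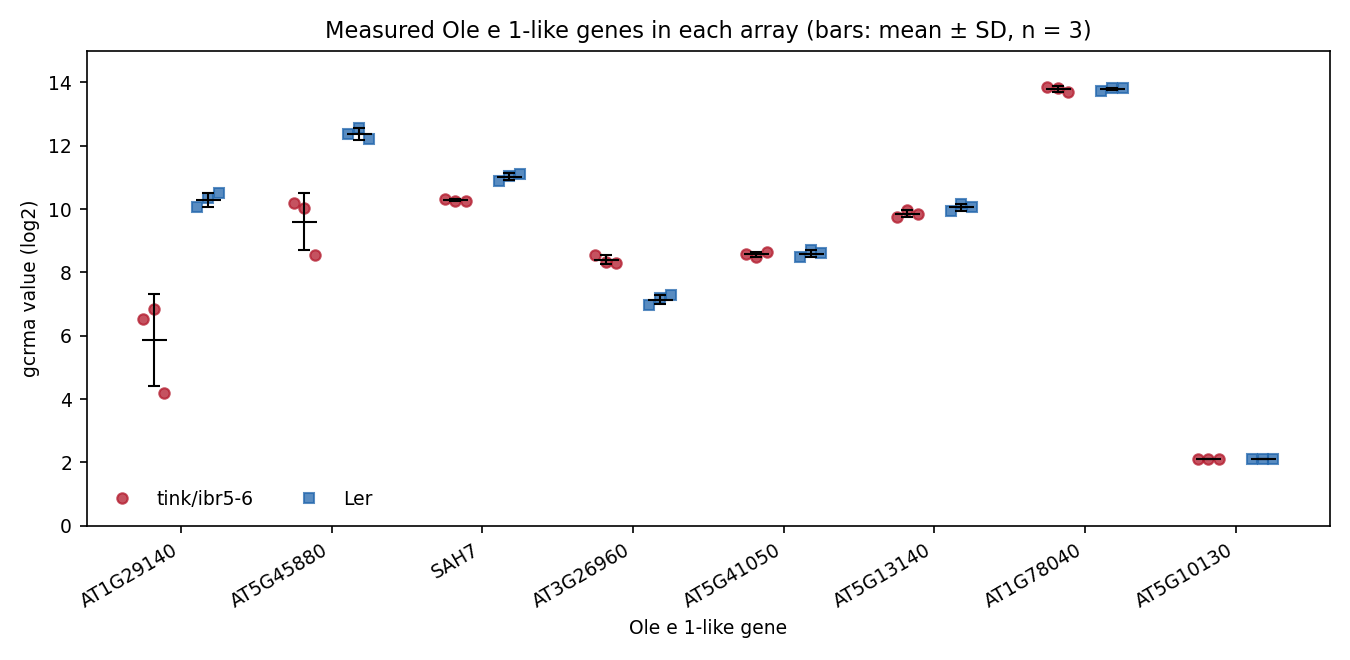
Log2 gcrma values of the 8 measured Ole e 1-like genes, with 1 point per array, *tink/ibr5-6* (red circles) left of L*er* (blue squares), and the mean and SD of 3 arrays in black. AT1G29140 and AT5G45880 lie lower in all *tink/ibr5-6* arrays, with replicate 3 at 4.20 and 8.56, and AT3G26960 lies higher, while AT5G10130 stays at 2.10 on every array.

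The difference between these 2 genes within an array was also compared between genotypes. The log2 value of AT1G29140 minus that of AT5G45880 was -3.65, -3.19 and -4.36 in *tink/ibr5-6*, against -2.31, -2.23 and -1.71 in L*er*, with no overlap. The mean of this difference was lower by 1.65 in the mutant (exact permutation test, two-sided, p = 0.1). This 1.65 is the gap between the 2 log2 fold changes given above. The adjusted p, taken as the larger of those of the 2 pairs compared, was also 0.1 and does not allow for how the pairs were chosen. With 3 arrays against 3, 0.1 is the smallest p that this test can give, and the 2 pairs were chosen after the values had been seen.

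AT3G26960 was higher in *tink/ibr5-6*. The study's gene descriptions name AT5G41050 as similar to it, and the role of neither is known here. Its log2 values were 8.56, 8.33 and 8.29 in *tink/ibr5-6*, against 6.97, 7.18 and 7.27 in L*er*. The groups were separated by 1.02, more than the range within either genotype. Means were 8.39 ± 0.14 in *tink/ibr5-6* and 7.14 ± 0.15 in L*er* (mean ± SD, 3 arrays each), and limma gave a log2 fold change of 1.25 ± 0.11 (standard error) with an adjusted p of 0.0080. The level in *tink/ibr5-6* was 2.39-fold that in L*er*, with a 95% confidence interval of 1.93-fold to 2.95-fold. Among all probe sets 213 had a higher log2 fold change, and the call of AT3G26960 held with each of the 6 arrays left out in turn.

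Its relative AT5G41050 had 8.57, 8.50 and 8.63 in *tink/ibr5-6*, against 8.48, 8.70 and 8.60 in L*er*. Here the arrays overlapped, and the log2 fold change was -0.03, with a 95% confidence interval of -0.22 to 0.16 (adjusted p = 0.99 from limma). A difference between genotypes as large as that of AT3G26960 lies outside this interval. Within an array, AT3G26960 minus AT5G41050 was -0.01, -0.17 and -0.34 in *tink/ibr5-6* and -1.51, -1.52 and -1.33 in L*er*. This difference was 1.28 higher in the mutant, and the exact permutation test gave the same p = 0.1 (two-sided), the smallest possible. Since AT5G41050 varied so little over the 6 arrays, this test restates the difference of AT3G26960 and adds nothing to it.

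AT4G08685, which RefSeq names *SAH7*, differed between genotypes by less than the limit for a call. Its values were 10.31, 10.26 and 10.26 in *tink/ibr5-6*, against 10.90, 11.04 and 11.12 in L*er*, without overlap and with the mutant arrays within 0.1 of each other. The log2 fold change was -0.74 (standard error 0.06, adjusted p = 0.0071 from limma), with a 95% confidence interval of -0.91 to -0.57 that stays short of a change by 1. In linear terms the level in L*er* was 1.67-fold that in *tink/ibr5-6*. Without a limit on the fold change 4 of the 8 Ole e 1-like genes passed, against 16.3% of all probe sets, and *SAH7* was the one gene added. It passed the p threshold with each of the 6 arrays left out.

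The other measured genes showed no difference that limma called. AT1G78040 gave the brightest probe set of the 8, with 13.85, 13.81 and 13.68 in *tink/ibr5-6* and 13.74, 13.81 and 13.81 in L*er*. These arrays overlapped, and its log2 fold change of -0.01 had a 95% confidence interval of -0.15 to 0.14. AT5G13140 had 9.75, 9.97 and 9.85 in *tink/ibr5-6*, against 9.93, 10.16 and 10.07 in L*er*. Its mutant arrays tended to lie lower but overlapped with the wild type, with a log2 fold change of -0.19 (95% confidence interval -0.43 to 0.04, adjusted p = 0.24 from limma). AT5G10130 lay at the lowest value, 2.10, on all 6 arrays, so that these arrays give neither a level nor a difference for it. The other 7 genes lay above a log2 value of 3 on every array.

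**Figure D2:**
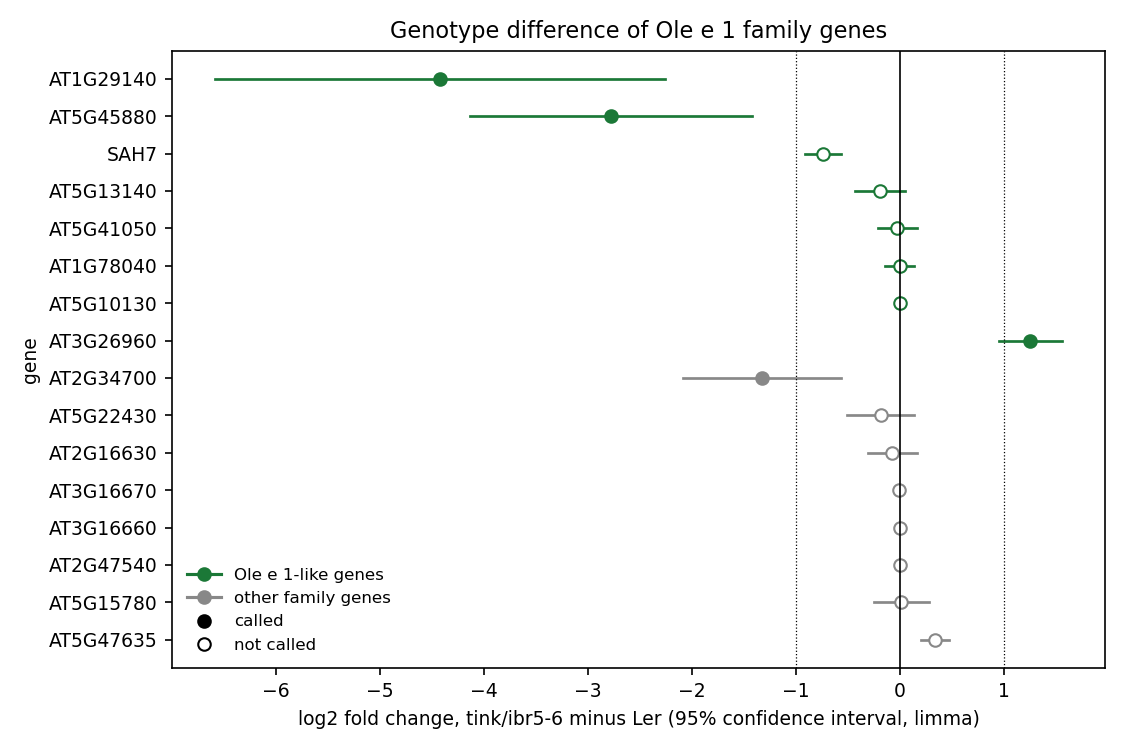
Log2 fold changes of *tink/ibr5-6* minus L*er* with 95% confidence intervals from limma for the 8 Ole e 1-like genes (green) and 8 further family genes (grey), with filled points for called genes and dotted lines at the fold limit. AT1G29140 at -4.43 and AT5G45880 at -2.78 stand to the left with wide intervals, AT3G26960 at 1.25 to the right, and *SAH7* at -0.74 between 0 and the limit.

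Outside the rule, 21 further genes of the family were listed, among them genes of proline-rich proteins of the cell wall, and 8 of these were measured. AT2G34700 was lower in *tink/ibr5-6*, no gene was higher and 7 were not called (median log2 fold change -0.01). AT2G34700, which the study's gene descriptions liken to a proline-rich protein of cotton, had log2 values of 3.47, 4.17 and 4.17 in *tink/ibr5-6* and 4.94, 5.27 and 5.57 in L*er*. Its arrays did not overlap, and the log2 fold change was -1.32 (standard error 0.28, adjusted p = 0.048 from limma), but it was not called once any 1 of the 6 arrays was left out. AT5G47635 had 9.22, 9.21 and 9.22 in *tink/ibr5-6*, against 8.77, 8.93 and 8.94 in L*er*. This log2 fold change of 0.34 (limma, adjusted p = 0.022) lay under the fold limit. AT5G22430 with -0.19, AT2G16630 with -0.07 and AT5G15780 with 0.01 overlapped between genotypes, and AT2G47540, AT3G16660 and AT3G16670 lay below a log2 value of 3 on all arrays. AT5G15780 had the same value, 4.41, on all 3 L*er* arrays and on *tink/ibr5-6* replicate 2, so that it may not give a level.

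Most measured genes that mark late pollen were lower in the same *tink/ibr5-6* arrays. Of 53 genes listed for late pollen and the pollen tube 17 were measured, of which 11 were lower, none was higher and 6 were not called, with a median log2 fold change of -2.53. The mean log2 value over the 17 genes ranged over 3.61 to 4.28 in *tink/ibr5-6* and 6.35 to 7.02 in L*er*, and *AGL65* and AT2G21480 lay below a log2 value of 3 on all arrays. The lowest fitted log2 fold changes were those of the pectin-degrading polygalacturonase gene AT5G48140, of *RALFL25*, from a family of signalling peptides, and of *PLIM2a*, which encodes an actin-bundling protein. AT5G48140 had log2 values of 3.79, 2.55 and 2.55 in *tink/ibr5-6*, against 8.42, 9.31 and 8.46 in L*er*. *RALFL25* had 3.20, 2.10 and 2.10 in *tink/ibr5-6*, against 7.62, 8.68 and 8.07 in L*er*, and *PLIM2a* had 3.75, 2.23 and 2.33 in *tink/ibr5-6*, against 7.63, 8.94 and 7.98 in L*er*. Since 2 mutant arrays of each lay under 3, near background, no fold or order is given for them. The uncalled genes with the highest means were *TUA1*, a tubulin gene, with -0.54 and *AGL30*, a MADS box gene, with -0.45. Also uncalled were *EXPB5* and *ANX1*, whose genotypes did not overlap. All their mutant arrays lay under 3, against 4.23, 6.48 and 4.46 for *EXPB5* and 2.68, 4.22 and 3.76 for *ANX1* in L*er*. Of the 17 genes 13 had an unadjusted p under 0.05 (limma). Over all probe sets at least 16.3% had such a p, the share that passed after adjustment.

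The decrease of AT1G29140 and AT5G45880 was set beside these markers array by array. As an average over the 15 late pollen genes above a log2 value of 3 on some array, *tink/ibr5-6* replicates 1, 2 and 3 differed from the L*er* mean by -2.64, -3.04 and -3.40. Of the 15 genes 7 had at least 1 mutant array under 3, so that these averages, like the median above, give the decrease only as a lower bound of its size. In the same arrays AT1G29140 differed from its own L*er* mean by -3.75, -3.44 and -6.09, and AT5G45880 by -2.18, -2.33 and -3.82. *MGH3* encodes a histone H3 of the male gametes and was the single gene measured of 10 listed for generative and sperm cells. It differed by -2.32 and -2.10 in replicates 1 and 2, while replicate 3 lay at 2.81, near background, which makes its difference of -4.43 a bound too. *MGH3* was not called (limma, log2 fold change -2.95, adjusted p = 0.062), but was called lower with arrays centred on their medians, among probe sets with a mean of 4 or more, and without *tink/ibr5-6* replicate 3. Replicate 3 was the lowest mutant array for both Ole e 1-like genes, for *MGH3* and for the late pollen average. From replicate 2 to replicate 3 the late pollen average fell less than the 2 Ole e 1-like genes did. Since late pollen genes near background could hardly fall further, the sizes of these steps cannot be compared. Single late pollen genes varied, with AT3G07820 at 9.36, 9.58 and 7.12 in *tink/ibr5-6* and AT4G39110 at 3.86, 3.19 and 3.39. The list for late pollen was written with earlier results of these arrays known, and whether the 2 Ole e 1-like genes fell with the amount of pollen RNA was not tested. From these arrays the study reported an excess of genes of male gametophyte development among those it called. Its Q-PCR also found altered levels for a subset of pollen genes. The study saw no gross defect in the form of mutant anthers and pollen, and no significant change when heterozygotes passed on the mutation through pollen. It also reported more flowers in the mutant inflorescence. With arrays of whole inflorescences, fewer pollen grains or younger ones and less RNA per grain cannot be told apart.

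Of 27 genes of the tapetum, the anther layer around the microspores, and of the microspore stage 6 were measured, without a call by limma (4 at an unadjusted p under 0.05). Here too, at least 16.3% of all probe sets had an unadjusted p under 0.05. The mean log2 value of the 6 genes ranged over 11.6 to 11.9 in *tink/ibr5-6* and 11.3 to 11.4 in L*er*, and their log2 fold changes differed in sign. AT5G52160 had 0.94, *AMS*, a regulator of tapetum genes, 0.89, AT5G62080 0.63 and AT5G07230 0.35, against -0.07 for *SHT* and -0.34 for AT1G75920, and of these *AMS* and AT5G62080 passed the p threshold under the fold limit (limma, adjusted p = 0.025 and 0.039). Of the 12 genes of pistil and ovule 3 were measured, none called by limma (2 at an unadjusted p under 0.05), with mean log2 values of 5.88 to 5.97 in *tink/ibr5-6* and 5.37 to 5.59 in L*er*. *NGA1* had a log2 fold change of 0.92 (limma, adjusted p = 0.017) and *SPT* one of 0.47 (limma, adjusted p = 0.13), while *INO* lay below 3 on all arrays. Of 12 photosynthesis genes *RCA*, the activase of the carbon-fixing enzyme, was measured, at 13.6 to 13.8 in *tink/ibr5-6* and 13.9 to 14.0 in L*er*. Its log2 fold change of -0.25 (limma, adjusted p = 0.029) lay within the fold limit. All 3 measured of 12 genes of floral meristems and organ identity (*UFO*, *RBE* and *CLV3*) lay at the lowest value on every array. The labelled tissue thus showed bright tapetum genes and no signal of these floral meristem and petal genes, and the part of any of these lists in the Ole e 1-like values was not tested.

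**Figure D3:**
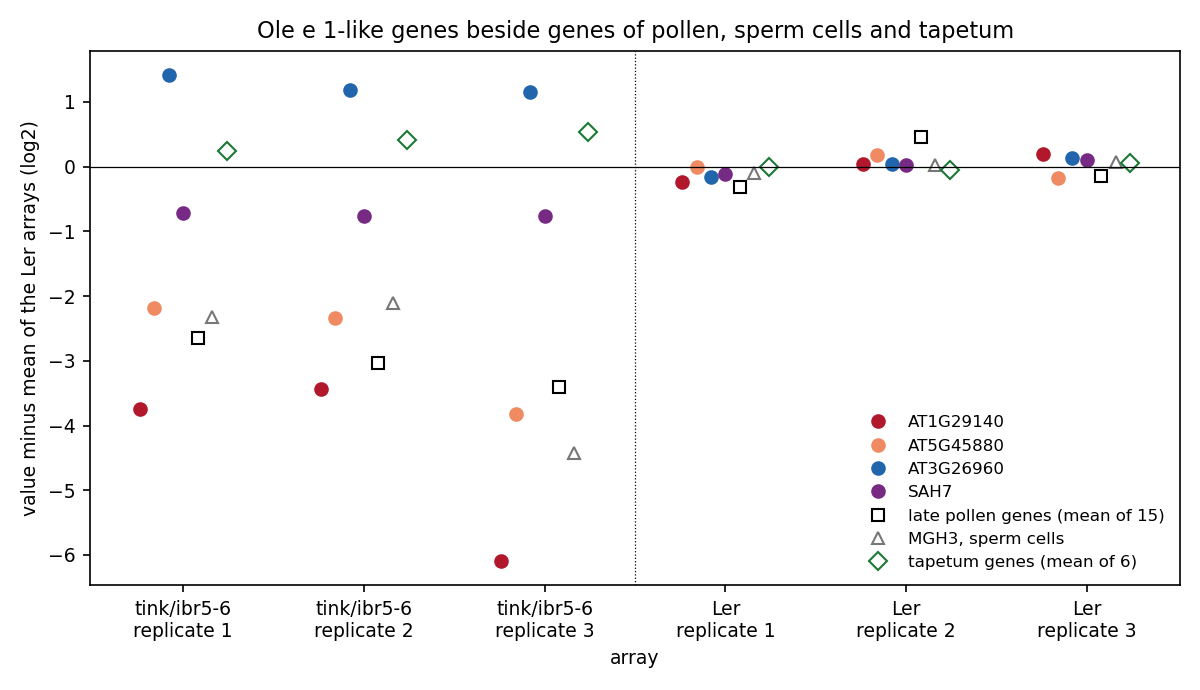
Log2 value of each array minus the mean of the L*er* arrays, for 4 Ole e 1-like genes (filled circles), the mean of 15 late pollen genes (7 of them under 3 on some mutant array), *MGH3* and the mean of 6 tapetum genes (open symbols). AT1G29140 reaches -6.09 and AT5G45880 -3.82 in *tink/ibr5-6* replicate 3, where *MGH3* lies at -4.43 and the late pollen genes at -3.40, while AT3G26960 lies above 1 in every mutant array.

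The genes whose profiles over the 6 arrays were most like those of the called Ole e 1-like genes were sought among the 13285 other measured genes, by the root mean square difference of log2 values after each gene was centred on its own mean. For AT1G29140 these were AT3G21970, described as related to receptor-like kinases, with a difference of 0.23, the polygalacturonase gene AT3G07820 with 0.28 and AT3G01240 with 0.32. AT3G07820, whose enzyme class cuts pectin, had log2 values of 9.36, 9.58 and 7.12 in *tink/ibr5-6* and 12.54, 12.90 and 12.54 in L*er*. It is also in the list for late pollen, and its low replicate 3 is part of the likeness that chose it. For AT5G45880 they were AT3G18360, a gene with a VQ motif, with 0.10, the dehydrogenase family gene AT5G51030 with 0.16 and AT4G11030, described as a long-chain acyl-CoA synthetase, with 0.17. AT5G45880 itself was number 68 in likeness to AT1G29140, and AT1G29140 number 261 in likeness to AT5G45880, with the same difference of 0.91. For AT3G26960 the nearest were *XTH32*, of a class of enzymes that rearrange xyloglucan in the cell wall, with 0.08, the zinc finger gene AT1G55040 with 0.10 and AT1G30070 with 0.10. These differences describe 6 arrays in 2 groups, and most of each profile is the difference between genotypes.

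The measured neighbours of the Ole e 1-like genes on the chromosomes were not called. Within 3 protein-coding genes on either side of the 10 loci 24 other genes were measured. None of them was called by limma, where 2.71% of all probe sets were called lower and 1.53% higher, and 8 of the 24 had an unadjusted p under 0.05. That unadjusted level was reached by at least 16.3% of all probe sets, the share that passed after adjustment. Of the 24, 7 lay below a log2 value of 3 on all arrays and could not be called, among them AT5G45910, the one measured neighbour of AT5G45880. An adjusted p under 0.05 within the fold limit was found for 5 of the 24, against 16.3% of all probe sets passing without that limit. These were AT1G78020 with a log2 fold change of -0.67 and *PGM* with 0.66 beside AT1G78040, AT2G27360 with 0.65 beside AT2G27385, *SAG29* with 0.61 beside AT5G13140 and AT3G26935 with -0.29 beside AT3G26960. Beside AT1G29140, AT1G29120 had a log2 fold change of -0.32 and AT1G29160 one of -0.07. On the same side of AT3G26960 as AT3G26935, AT3G26950 had 0.30 (adjusted p = 0.063 from limma), and on the other side AT3G26990 had 0.03.

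**Figure D4:**
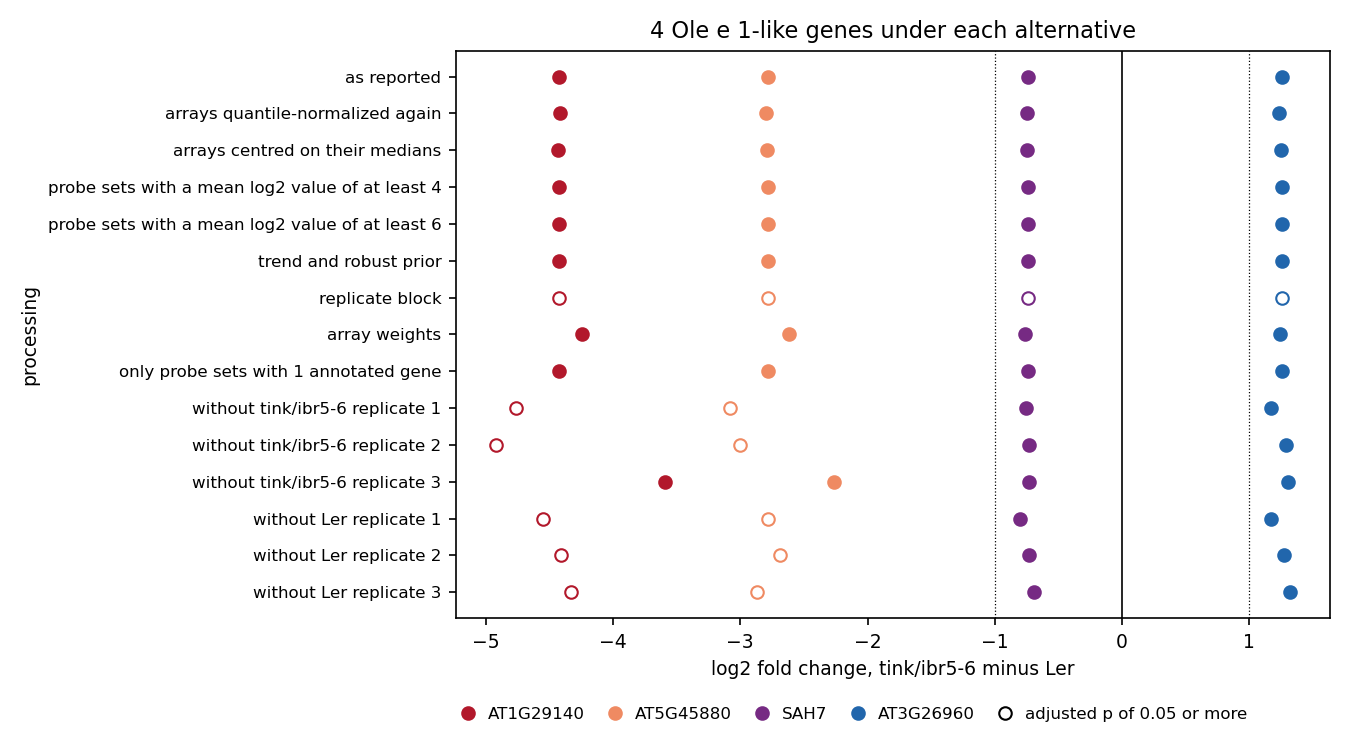
Log2 fold change of *tink/ibr5-6* minus L*er* for AT1G29140, AT5G45880, *SAH7* and AT3G26960 as reported and under 14 alternatives, with open points where the adjusted p was 0.05 or more. The order of the 4 genes is the same in every setting, and the points of AT1G29140 are open in 5 of the 6 settings that leave out 1 array.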

How the data were processed

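RNA of 3 *tink/ibr5-6* and 3 L*er* plants was hybridised to ATH1 arrays. The deposited log2 values, 1 per probe set and array, are gcrma values made by the authors (version not stated), which subtracts background modelled from probe sequence and makes the distributions of arrays alike, so that a shift of all genes would not show. They were used as deposited. Of 22810 probe sets 64 controls were left out, and 22746 were tested. The platform annotation gives 1 gene for 13513 probe sets, of which 13436 were matched to a locus of RefSeq (TAIR10.1), several genes for 503, and leaves 8730 unlisted. For the 144 genes with several probe sets, the brightest was used.

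The comparison used lmFit and eBayes of limma 3.58.1 (R 4.3.3) over all probe sets. Its prior for the spread had 0.401 degrees of freedom, so that each probe set rests mostly on its own 6 values. The number of arrays limits the precision. Nothing says whether plants were grown together, so p-values reflect only the variation among these plants. The alternatives were another normalization, filters on dim probe sets, a trend and robust prior, array weights, a replicate block, other thresholds, single-gene probe sets, and leaving out each array. The members, gene lists and the level of 3 were chosen with earlier results of these data known. All 10 members and all measured genes of the family list are named, of the other lists up to 3 called genes with the largest change and up to 2 uncalled genes with the highest mean, and the 3 most alike genes of each called member. *AGL65*, AT2G21480, *EXPB5*, *ANX1*, the floral identity and tapetum genes, neighbouring genes and the 2 pairs were added after the values were seen. No protein, promoter or probe sequences were used here. Tables and figures were made with Python 3.11.15, numpy 2.4.6, pandas 2.3.3 and matplotlib 3.10.9.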

Additional observations from a re-analysis of the deposited data

How the results depend on the processing

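AT1G29140, AT5G45880, *SAH7* and AT3G26960 kept their direction under all 14 alternatives. The first 2 were called in 8 of them, with adjusted p from 0.0015 to 0.137 and from 0.0015 to 0.109, and AT3G26960 in 13, with 2.3e-04 to 0.090. The count of members called lower, 2, was 0 at an adjusted p under 0.01 and 0 to 2 when 1 array was left out, with 2 only without *tink/ibr5-6* replicate 3. Deviations of same-numbered arrays correlated at -0.30, 0.02 and -0.05, and these 3 values cannot settle whether the replicate numbers pair the samples. With the replicate block, which leaves fewer degrees of freedom, 133 probe sets were called in place of 966, 0 members were called lower or higher, and 0 late pollen genes and 0 other family genes were lower. The 966 were 632 where probe sets dimmer than 6 on average were left out, 493 among single-gene probe sets, 518 to 746 without 1 array, 366 at an adjusted p under 0.01 and 3697 without the fold limit. Late pollen genes called lower were 3 of 4 tested with a mean of 6 or more, 6 to 11 without 1 array and 5 at an adjusted p under 0.01. The single other family gene called lower, AT2G34700, was lost (0 called) with arrays quantile-normalized again, with a trend and robust prior, among single-gene probe sets, at a mean of at least 6, where it was not tested, at an adjusted p under 0.01 and without any 1 array, and without the fold limit 1 was higher. Signs near 0 turned for AT1G78040 (0.0020 with array weights, -0.040 to 0.045 without 1 array) and AT5G41050 (-0.084 to 0.025 without 1 array). AT5G10130, at the lowest value, has no value where dim probe sets were left out. The cause of these changes was not tested.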
